A study of Mus musculus with 16 samples.

Results

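The genes described here are 36 components and regulators of autophagy, the kinases, lipid and conjugation enzymes, ubiquitin-like proteins and cargo receptors that build an autophagosome and load it. A gene was included when the platform annotation of the array gave its symbol to a probe, which held for 32 of the 36 genes and for 57 of the 25697 probes of the array. Optn, Pik3r4, Atg9a and Atg14 had no probe named in the annotation. The study names ILMN_2676606 as Optn, and that probe was read beside the 57, while Pik3r4, Atg9a and Atg14 were not analysed here. At a detection p-value below 0.01 on at least 4 arrays, 42 of the 57 probes and 28 of the genes were detected.

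The arrays measured RNA from the ventricles of 16 mice in 4 groups of 4: BACHD at 15 mo, WT at 15 mo, BACHD at 3 mo and WT at 3 mo, with 1 array for each mouse. BACHD mice carry the full-length human gene for mutant huntingtin on a bacterial artificial chromosome, and the WT mice were their littermates on the same C57BL6/J background. The labels call the mice old and young and the tissue heart, and the methods give the ages in months and the ventricles. The transgene is driven by the human huntingtin promoter and is not limited to the heart.

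Autophagy encloses cytoplasm in a double membrane and delivers it to the lysosome for breakdown. The ULK kinase complex starts the process, a lipid kinase around Beclin 1 marks the membrane, and a cascade resembling ubiquitin conjugation attaches proteins of the LC3 and GABARAP families to the growing membrane, where cargo receptors such as Sqstm1 bind. In the heart, whose muscle cells are seldom replaced, the pathway is known for the turnover of mitochondria and of aggregated protein. Huntingtin is a cytosolic protein whose mutant form aggregates.

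Age moved a few of these genes, and genotype moved none of the 57 annotated probes past the threshold. The further probe of Optn, a receptor that binds ubiquitinated cargo and LC3, was called between the genotypes at 15 mo. The study lists that probe among genes that changed in these same arrays, so its calls are a description and not independent evidence. Optn was 1.30-fold higher in BACHD than in WT hearts at 15 mo (adjusted p = 0.555 in limma). That call held under only 8 of 18 alternatives. With age Optn was 1.52-fold higher at 15 than at 3 mo in BACHD hearts. Pink1, the kinase that marks damaged mitochondria for autophagy, was 1.23-fold higher at 15 than at 3 mo in BACHD hearts and 1.31-fold higher in WT hearts. Over both genotypes together, Sqstm1, Atg13 and Atg7 were also higher in aged hearts and 1 probe of Atg5 was lower. Between BACHD and WT hearts, 0 of the 57 probes passed the threshold at 15 mo, against 0.895% of all probes, and 0 at 3 mo, against 0.483%. The shares of the 57 called with age were near those of all probes in WT hearts and averaged over both genotypes. In BACHD hearts the share was lower, at 1.75% against 5.15%. The threshold was P below 0.005 without adjustment in limma, as the methods set it, and the p-values adjusted over all 25697 probes are given beside it. All values are log2 of the normalized intensity, differences are in the same log2 unit, and levels are compared only within a probe.

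The 16 arrays detected 39 to 43 of the 57 probes each and 9780 to 10755 of all probes. With 4 arrays in each group, small differences could not be resolved. Heart muscle genes averaged 13.40 to 13.50 on the aged BACHD arrays, 13.35 to 13.45 on the aged WT arrays, 13.35 to 13.45 on the young BACHD arrays and 13.34 to 13.45 on the young WT arrays. Of the 8 listed markers of atrial muscle, 8 had a probe and 7 were detected, and their mean ranged over 7.23 to 8.12 on the aged BACHD arrays, 6.996 to 9.02 on the aged WT arrays, 7.12 to 7.31 on the young BACHD arrays and 6.98 to 7.25 on the young WT arrays. It was raised on 4 aged arrays, BACHD replicates 3 and 4 and WT replicates 2 and 4. The mean of 6 macrophage markers, with Cd68 and Csf1r not measured, was 8.26 to 8.73 in aged BACHD hearts, 8.72 to 8.89 in aged WT hearts, 8.79 to 9.10 in young BACHD hearts and 8.67 to 9.29 in young WT hearts. Of 8 fibroblast genes, all with a probe and 6 detected, the mean was 7.61 to 8.05 in aged BACHD hearts, 7.66 to 8.15 in aged WT hearts, 8.13 to 8.18 in young BACHD hearts and 7.90 to 8.23 in young WT hearts. Smooth muscle and pericyte genes, 7 with a probe and 5 detected, averaged 7.52 to 7.78 in aged BACHD hearts, 7.65 to 7.86 in aged WT hearts, 7.31 to 7.62 in young BACHD hearts and 7.37 to 7.57 in young WT hearts. Of 7 genes of fast skeletal muscle 6 had a probe, without Myh2, and 3 were detected, with means of 5.18 to 6.23 in aged BACHD hearts, 5.20 to 5.58 in aged WT hearts, 5.57 to 7.14 in young BACHD hearts and 5.50 to 7.06 in young WT hearts. The mean of 12 clock genes, which follow the time of day, was 7.80 to 8.41, 7.19 to 8.42, 7.39 to 7.58 and 7.29 to 7.70 in those 4 groups in the same order. With age in BACHD, 3 of 10 fibroblast probes and 4 of 10 macrophage probes were called, all lower. Of the clock probes 5 of 21 were called, 4 higher and 1 lower, and of the atrial probes 1 of 13, higher. The share of all probes called in either direction was 5.15%. No probe of the other sets named here was called in that comparison. The part of these differences in the results on autophagy genes was not tested. Values without the 4 arrays are given for the called members and for the other named calls that then ended. In RNA from whole ventricles, fewer cells of a type and less RNA per cell cannot be told apart.

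The comparison of 15 with 3 mo asked which genes change with age in each genotype. In BACHD hearts 1 of the 57 annotated probes was called, against 5.15% of all probes, and in WT hearts 2 were called, against 2.77% of all probes. As an average of both genotypes, 5 probes were called, 4 higher and 1 lower, which is 8.77% of the 57 against 7.05% of all probes. All 5 had an adjusted p under 0.05, a limit that 5.78% of all probes passed. Among probes detected on at least 4 arrays, this average was called for 11.9% of the 42 autophagy probes and 15.1% of all. In BACHD hearts the detected shares were 2.38% against 11%, and in WT hearts 4.76% against 5.55%. The share in BACHD, from 1 called probe, was thus below that of all probes, and the others were near it. At the adjusted limit 1 autophagy probe passed in BACHD hearts, against 3.00% of all probes, and 1 in WT hearts, against 0.712%. The median difference of the 57 probes with age was -0.00207 in BACHD and -0.000454 in WT, and that of all probes was -0.0016 and -0.000334 in BACHD and WT.

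Of the 57 probes, a Pink1 probe had the smallest P in both genotypes. Its brightest probe, ILMN_1255556, read 12.28, 12.24, 12.28 and 12.43 in the aged BACHD hearts and 12.10, 11.94, 11.98 and 12.01 in the young BACHD hearts. In WT hearts it read 12.43, 12.42, 12.48 and 12.30 at 15 mo and 12.05, 12.08, 11.96 and 11.99 at 3 mo. All 8 aged hearts lay above all 8 young hearts. The difference was 0.30 ± 0.06 in BACHD (SE, limma, adjusted p = 0.0187) and 0.39 ± 0.06 in WT (adjusted p = 0.00779), and the exact two-sided permutation test of 4 against 4 hearts gave its smallest possible p of 0.0286 in each genotype. The effect of age differed between BACHD and WT by -0.09, with a 95% interval of -0.28 to 0.10. The second Pink1 probe, ILMN_2616573, was also higher at 15 mo, by 0.28 in BACHD and 0.12 in WT, and was not called. Averaged over both genotypes the brightest probe differed by 0.34, and this call held under all 26 alternatives tried, over a range of 0.27 to 0.36. Without the 4 arrays with raised atrial markers the difference was 0.26 in BACHD and 0.44 in WT. Both of these were calls. With the arrays scaled by their medians in place of quantile normalization, Pink1 differed by 0.27 in BACHD and 0.32 in WT without a call, and its average, at 0.30, was the only call among the 57 probes. With the probes of a gene averaged, the call in WT ended, at 0.25.

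Sqstm1 encodes a receptor that binds ubiquitinated cargo and LC3. Its probe read 12.38, 12.37, 12.02 and 12.47 in aged BACHD hearts and 11.87, 11.99, 11.75 and 11.94 in young BACHD hearts. WT hearts gave 12.12, 12.25, 12.53 and 11.86 at 15 mo and 12.06, 12.06, 11.75 and 11.94 at 3 mo. The ages did not overlap in BACHD and overlapped in WT, where 1 aged heart lay below 3 of the young ones. The difference in BACHD, 0.42 ± 0.13 (SE), had an unadjusted limma P of 0.00501 and so missed the threshold, and that in WT was 0.24. Averaged over both genotypes the difference was 0.33 (adjusted p = 0.0454). That call was lost, at 0.30 to 0.32, when any of aged BACHD replicates 1, 2 and 4, aged WT replicate 2, young BACHD replicate 3 or young WT replicate 3 was left out. Without the 4 arrays with raised atrial markers it was 0.43 and still called.

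**Figure D1:**
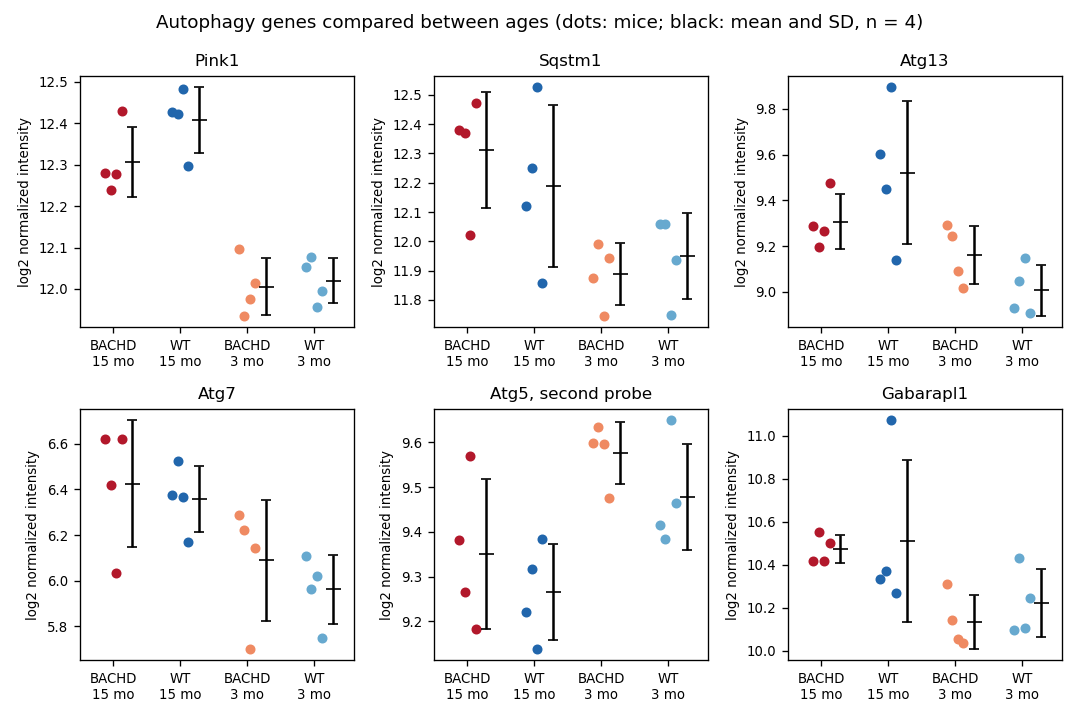
Log2 normalized intensity (vertical axes) of 6 probes in the 4 groups, with each dot 1 mouse and the black mark and bar the mean and SD of the 4 mice. The 8 aged hearts lie at 12.24 or above for Pink1, with the 8 young hearts at 12.10 or below, while the other 5 probes overlap between the ages in at least 1 genotype.

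Atg13 is the subunit that links the ULK kinases to the rest of their complex. It read 9.29, 9.19, 9.27 and 9.48 in aged BACHD hearts and 9.29, 9.24, 9.09 and 9.02 in young BACHD hearts. WT hearts gave 9.60, 9.45, 9.89 and 9.14 at 15 mo and 8.93, 9.05, 9.15 and 8.90 at 3 mo, so that 3 of the 4 aged WT hearts lay above all young WT hearts. The difference in WT was 0.51 ± 0.13 (SE, adjusted p = 0.0849 in limma) and that in BACHD was 0.15. The call in WT ended with only the 8 WT arrays in the fit, at 0.51, and with median scaling, at 0.48. The difference between these effects was -0.37, with a 95% interval of -0.75 to 0.01, and was not called. Averaged over both genotypes the difference was 0.33 (adjusted p = 0.0411). Leaving out aged BACHD replicate 4, aged WT replicate 1, young BACHD replicate 4 or young WT replicate 4 ended that call, at 0.30 to 0.32. Without the 4 arrays with raised atrial markers it was 0.41 and called. Without aged WT replicate 4 alone the difference between the effects was called, at -0.50.

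Atg7 activates both ubiquitin-like systems of autophagy, the Atg12 and the LC3 branch. It was a dim probe, detected on 15 of 16 arrays, and read 6.62, 6.42, 6.03 and 6.62 in aged BACHD hearts and 6.29, 6.22, 5.70 and 6.14 in young BACHD hearts. In WT hearts it read 6.37, 6.52, 6.37 and 6.17 at 15 mo and 6.11, 5.97, 6.02 and 5.75 at 3 mo. The ages overlapped in BACHD through aged replicate 3 and did not overlap in WT. Averaged over both genotypes the difference was 0.37 (adjusted p = 0.0481), with 0.33 in BACHD and 0.40 in WT. It was lost as a call, at 0.302 to 0.365, without any of aged BACHD replicates 1 and 4, aged WT replicates 1, 2 and 3, young BACHD replicate 3 and young WT replicate 4. Without background correction the difference was 0.14, and without the 4 arrays with raised atrial markers it was 0.42, and it was called in both.

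Atg5, which joins with Atg12 and Atg16l1 to direct LC3 to the membrane, was the member called lower. Its probe ILMN_2998139 read 9.38, 9.27, 9.57 and 9.18 in aged BACHD hearts and 9.60, 9.63, 9.60 and 9.48 in young BACHD hearts. The WT hearts read 9.22, 9.32, 9.14 and 9.38 at 15 mo and 9.41, 9.38, 9.65 and 9.46 at 3 mo. Of the 8 aged hearts, 7 lay below all 8 young ones, the exception being aged BACHD replicate 3. The difference was -0.23 in BACHD and -0.21 in WT, and -0.22 averaged over both (adjusted p = 0.0499). The brightest Atg5 probe, ILMN_2998135, differed by -0.23 in BACHD and -0.00045 in WT and was not called, so the 2 probes of this gene did not give the same result in WT. The call on the dimmer probe ended, at -0.22 to -0.19, when any of 8 arrays was left out: aged BACHD replicates 2 and 4, aged WT replicates 1 and 3, young BACHD replicates 1, 2 and 3 and young WT replicate 3. It also ended with the replicate block, at -0.22, with averaged probes, at -0.17, and with median scaling, at -0.24. It held, at -0.28, without the 4 arrays with raised atrial markers.

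Optn was read on ILMN_2676606, a probe the platform annotation leaves unnamed and the study lists as Optn among genes that changed in these arrays, so its calls are a description and not independent evidence. It was detected on 16 of 16 arrays. It read 10.22, 10.39, 10.04 and 10.27 in aged BACHD hearts and 9.91, 9.70, 9.94 and 9.87 in aged WT hearts. At 3 mo it read 9.81, 9.56, 9.67 and 9.45 in BACHD hearts and 9.68, 9.90, 9.37 and 9.75 in WT hearts. The 4 aged BACHD hearts lay above the other 12 hearts, and the young genotypes overlapped. BACHD and WT differed by 0.38 ± 0.11 at 15 mo (SE, 95% interval 0.14 to 0.61), a call with an adjusted p of 0.555 in limma, and by -0.05 at 3 mo (-0.29 to 0.18). The call at 15 mo held under 8 of 18 alternatives, over a range of 0.325 to 0.441. It ended, at 0.325 to 0.405, without any of aged BACHD replicates 1, 2 and 4 and aged WT replicates 1, 2, 3 and 4. It also ended with median scaling, at 0.416, with the replicate block, at 0.377, and without the 4 arrays with raised atrial markers, at 0.386. With age the difference was 0.61 in BACHD (adjusted p = 0.00874), called under 18 of 18 alternatives at 0.543 to 0.687, and 0.18 in WT (95% interval -0.06 to 0.41), not called. The change with age in the genotype effect, 0.43 (adjusted p = 0.761), was not called, and was called without young WT replicate 3 alone, at 0.533.

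The promoters of these genes are shown because TFEB, the transcription factor known for raising autophagy and lysosome genes, binds a site that holds an E-box. Of the 36 genes, 30 matched an entry of the RefSeq promoter table (GRCm38.p6, 250 bases before and 50 after each start, 37 entries for these genes), and Becn1, Map1lc3a, Pik3c3, Rb1cc1, Atg12 and Atg16l1 did not. The E-box CACGTG, searched on both strands, was in 4 of the 37 entries, which is 10.8% against 7.15% of all 32851 promoters. The longer TCACGTGA, which contains the E-box, was in 1 of them, against 0.974% of all. The E-box lay in the windows of Atg3, Atg5, Atg7 and Atg14. Atg7 and Atg5 were called with age, and their 250 bases before the start follow, 5′ to 3′ on the strand of the gene, with the E-box in capitals. Atg7 is on the plus strand at chr6:114670846-114671095 and Atg5 on the plus strand at chr10:44268089-44268338.
Atg7: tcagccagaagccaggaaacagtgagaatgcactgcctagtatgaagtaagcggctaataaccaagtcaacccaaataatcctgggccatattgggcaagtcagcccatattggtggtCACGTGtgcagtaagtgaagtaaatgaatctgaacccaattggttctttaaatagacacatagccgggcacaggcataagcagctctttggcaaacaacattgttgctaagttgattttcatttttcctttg
Atg5: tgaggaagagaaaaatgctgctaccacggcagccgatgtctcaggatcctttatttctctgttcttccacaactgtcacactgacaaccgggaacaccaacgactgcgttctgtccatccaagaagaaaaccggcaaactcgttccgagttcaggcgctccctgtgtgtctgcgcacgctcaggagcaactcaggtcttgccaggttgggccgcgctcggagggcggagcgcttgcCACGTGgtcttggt
Counting the base before the start as -1, the E-box begins at -132 in Atg7, which was higher in aged hearts, and at -14 in Atg5, whose probe was lower. The window of Atg3, the enzyme that hands LC3 to its lipid, holds both E-box matches of its promoter within 60 bases on the plus strand at chr16:45158724-45158783, and the longer site is in capitals, with the other E-box in lower case.
Atg3: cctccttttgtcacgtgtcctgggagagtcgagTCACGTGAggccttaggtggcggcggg
Atg3 differed with age by 0.10 in BACHD and 0.06 in WT and was not called. The windows of Pink1, Sqstm1 and Atg13 hold no CACGTG, which says only that these letters are not in these 300 bases. The GC box GGGCGG, a site of general transcription factors searched on both strands, is in 59.5% of the entries of these genes and 35.7% of all promoters. It is in capitals in the 250 bases before the start of Pink1 (minus strand, chr4:138326297-138326546) and of Sqstm1 (minus strand, chr11:50210821-50211070), both higher in aged hearts.
Pink1: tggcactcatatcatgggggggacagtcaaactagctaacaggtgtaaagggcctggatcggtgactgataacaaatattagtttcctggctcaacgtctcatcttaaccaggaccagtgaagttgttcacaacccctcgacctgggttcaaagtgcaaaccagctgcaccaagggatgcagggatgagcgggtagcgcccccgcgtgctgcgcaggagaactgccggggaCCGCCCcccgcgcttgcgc
Sqstm1: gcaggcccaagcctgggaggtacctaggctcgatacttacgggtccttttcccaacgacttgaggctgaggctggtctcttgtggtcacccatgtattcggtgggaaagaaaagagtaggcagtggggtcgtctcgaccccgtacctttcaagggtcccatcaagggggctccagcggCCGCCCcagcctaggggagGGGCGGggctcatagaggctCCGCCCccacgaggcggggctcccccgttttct
Pink1 holds 1 such box before the start and Sqstm1 holds 3. Atg5, whose called probe was lower, also holds the box, at -29, left in lower case in its sequence above. The windows of Atg7 and Atg13, both higher in aged hearts, hold none. Among the called members the box therefore did not follow the direction of the age difference. A match of letters is a description of the sequence and not a measured binding site.

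None of the other measured members was called with age, and they are given by role. In the initiation complex, Ulk1, the kinase that starts autophagy under control of mTORC1 and AMPK, read 9.38, 9.51, 9.41 and 9.16 in aged BACHD hearts and 9.54, 9.47, 9.11 and 9.16 in young BACHD hearts. The WT hearts read 9.36, 9.15, 9.43 and 9.37 at 15 mo and 9.18, 9.38, 9.24 and 8.93 at 3 mo. The ages overlapped in both genotypes, and the differences were 0.05 in BACHD (95% interval -0.20 to 0.29) and 0.15 in WT (-0.10 to 0.39). Its relative Ulk2 differed by 0.06 in BACHD and -0.12 in WT, and Atg101, a further subunit, by -0.11 and -0.15 in BACHD and WT. The probe of Rb1cc1, the scaffold of the complex, was not detected on any array.

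The lipid kinase complex of nucleation showed no call. Becn1, its Beclin 1 subunit, read 7.49, 7.25, 7.49 and 7.19 in aged BACHD hearts and 7.09, 7.28, 7.60 and 7.52 in young BACHD hearts. In WT hearts it read 7.41, 7.35, 6.92 and 7.40 at 15 mo and 7.03, 7.39, 7.46 and 7.62 at 3 mo. The groups overlapped, with differences of -0.02 in BACHD (95% interval -0.33 to 0.29) and -0.11 in WT (-0.41 to 0.20). The catalytic subunit Pik3c3 differed by 0.25 in BACHD and 0.12 in WT, Uvrag, a subunit of the complex on later endosomal membranes, by 0.12 and 0.18, and Ambra1, a regulator that binds Beclin 1, by 0.19 and 0.25, each with BACHD first. As averages of both genotypes these 3 differed by 0.19, 0.15 and 0.22, with adjusted p-values in limma of 0.1, 0.0931 and 0.0834, and a further detected Ambra1 probe differed by 0.24, which the replicate block turned into a call (adjusted p = 0.0634). None passed the threshold in the main fit, and all 3 were higher at 15 mo in both genotypes. Without background correction the averages were called, at 0.154 for Pik3c3, 0.12 for Uvrag and 0.147 and 0.145 for the Ambra1 probes. Each of these was also called when certain single arrays were left out.

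Of the proteins that supply the membrane, Wipi1, which binds the lipid mark of the Beclin 1 complex, was lower at 15 mo on its 2 brightest probes, by -0.09 and -0.12 in BACHD and -0.20 and -0.32 in WT, without a call. Its dimmest detected probe differed by 0.18 in BACHD and -0.20 in WT. The brightest was called without background correction, at -0.184 in WT and -0.135 on average, and also without young WT replicate 4. The next brightest was called with trended and robust variances, at -0.316 in WT and -0.22 on average. It was also called in WT without young WT replicate 1, at -0.385, or aged WT replicate 2, at -0.405. Without aged BACHD replicate 3 it was called on average, at -0.255. The relative Wipi2 differed by 0.05 and 0.15, the lipid transfer protein Atg2a by -0.18 and 0.08, and the endoplasmic reticulum protein Vmp1 by -0.13 and -0.11, in BACHD and WT on the brightest probes.

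Among the conjugation enzymes other than Atg7 and Atg5, the LC3 proteases Atg4b and Atg4d were dim, each detected on 14 arrays, and differed by -0.38 and -0.03 in BACHD and -0.05 and 0.07 in WT. A further protease, Atg4c, was detected on 2 of the 4 arrays of each young group and on none of the aged arrays, so no fold is given for it. Atg4a was not detected on any array. Atg10, the enzyme that hands on Atg12, differed by -0.04 in both genotypes, Atg12 itself by -0.08 in BACHD and -0.14 in WT, and Atg16l1 by -0.08 and -0.04.

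The proteins that are themselves attached to the membrane showed no call, and among those detected Gabarapl1 differed most. Map1lc3a, a form of LC3, read 11.49, 11.48, 11.40 and 11.67 in aged BACHD hearts and 11.54, 11.69, 11.42 and 11.72 in young BACHD hearts. WT hearts gave 11.35, 11.81, 11.68 and 11.66 at 15 mo and 11.75, 11.67, 11.47 and 11.55 at 3 mo. The groups overlapped, with differences of -0.08 in BACHD (95% interval -0.30 to 0.13) and 0.02 in WT (-0.20 to 0.23). Map1lc3b, the LC3 form used most as a marker of autophagosomes, read 8.78, 9.41, 9.27 and 9.56 in aged BACHD hearts and 9.20, 9.09, 9.24 and 9.32 in young BACHD hearts. WT hearts gave 9.03, 9.02, 9.06 and 9.55 at 15 mo and 9.29, 9.10, 9.32 and 9.03 at 3 mo. Its ages overlapped in both genotypes, with differences of 0.05 in BACHD (95% interval -0.27 to 0.37) and -0.02 in WT (-0.34 to 0.30). Gabarapl1, a member of the GABARAP family, read 10.42, 10.55, 10.42 and 10.50 in aged BACHD hearts and 10.31, 10.14, 10.05 and 10.04 in young BACHD hearts. In WT hearts it read 10.33, 10.37, 11.07 and 10.27 at 15 mo and 10.10, 10.43, 10.10 and 10.25 at 3 mo. The aged and young hearts did not overlap in BACHD and did in WT. The average difference, 0.31, missed the threshold (adjusted p = 0.0889 in limma), and it was called without background correction, with trended and robust variances, at 0.31, and without young WT replicate 2, at 0.35, aged WT replicate 3, at 0.22, or aged WT replicate 4, at 0.35. In BACHD its difference was called, at 0.34, with only the 8 BACHD arrays and also without aged WT replicate 3. Gabarap differed by 0.10 in BACHD and -0.01 in WT, and Gabarapl2 was detected on 3 arrays.

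Nbr1, a cargo receptor related to Sqstm1, differed with age by -0.0034 in BACHD and -0.12 in WT on its brightest probe. The 2 probes of Tfeb were detected on none of the 16 arrays, with values of 4.62 to 5.07 in aged BACHD hearts, 4.69 to 4.79 in aged WT hearts, 4.71 to 5.20 in young BACHD hearts and 4.74 to 5.21 in young WT hearts on the brighter probe. No comparison can be read from these values.

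**Figure D2:**
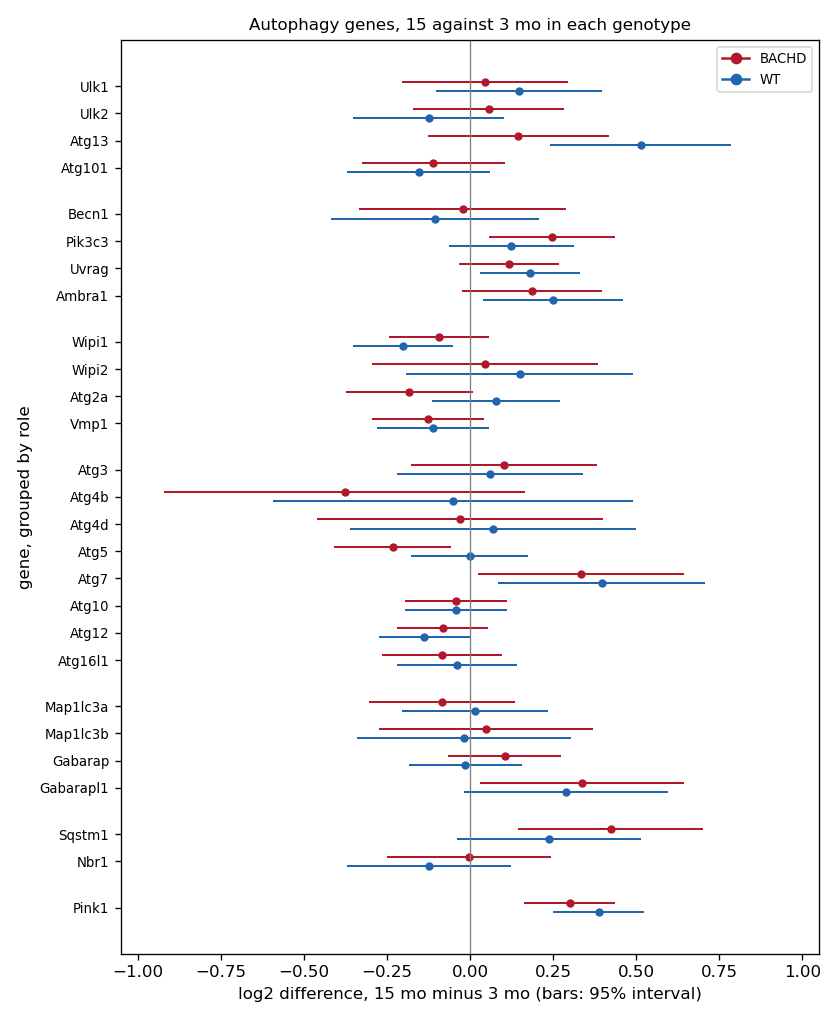
Log2 difference between 15 and 3 mo (horizontal axis) for the brightest probe of the 27 genes detected in every group, grouped by role, in BACHD (red) and WT (blue) hearts, with bars for the 95% interval. Pink1 lies to the right of 0 in both genotypes, at 0.30 in BACHD and 0.39 in WT, and Becn1, Map1lc3a and Map1lc3b lie at or near 0.

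The direction of the age difference was shared between the genotypes for 21 of the 27 genes whose brightest probe was detected in every group, 11 higher and 10 lower in both. That is 77.8%, against 67.2% of the 10392 probes detected on at least 4 arrays and in every group. The 2 effects come from different mice. The genes enter by their brightest probe and the background by every such probe. These shares, and the spreads below, are therefore not taken over like sets. Of the 8 such conjugation genes, 5 were lower in both genotypes and 2 were higher, while of the 4 nucleation genes 3 were higher in both. These counts describe signs and most of the differences behind them did not pass the threshold. The median spread within groups was 0.15 for the 27 genes, against 0.178 for those 10392 probes, with a range of 0.07 to 0.40 among the genes.

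The comparison of BACHD with WT asked whether the transgene changed these genes at either age. In limma 0 of 57 probes were called at 15 mo, against 0.895% of all probes, and 0 at 3 mo, against 0.483%. At P below 0.05 without adjustment 0 of the 57 passed at 15 mo, against 6.12% of all probes, and 1 at 3 mo, against 4.88%. Averaged over both ages 0 were called, against 0.486% of all probes, and 1 passed at 0.05, against 4.68%. For 26 of the 27 genes detected in every group at 15 mo and 25 of them at 3 mo, the 95% interval of the difference lay between -0.5 and 0.5. The exception at 15 mo was Atg4b, with -0.43 and an interval of -0.97 to 0.11.

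Nbr1 had the smallest P of the 57 probes at 3 mo and on average. Its brightest probe read 7.49, 7.36, 7.82 and 7.67 in aged BACHD hearts and 7.94, 7.46, 7.87 and 7.69 in aged WT hearts, and these groups overlapped. At 3 mo it read 7.41, 7.65, 7.69 and 7.60 in BACHD hearts and 7.78, 7.88, 7.78 and 8.01 in WT hearts, with every BACHD heart below every WT heart. The difference was -0.15 at 15 mo and -0.27 ± 0.11 at 3 mo (SE, adjusted p = 0.969 in limma). The exact two-sided permutation p at 3 mo was 0.0286, the smallest that 4 against 4 hearts allow. The other Nbr1 probe differed by -0.03 at 15 mo and -0.04 at 3 mo. Averaged over both ages the brightest probe differed by -0.21 (adjusted p = 0.976), and it was called, at -0.26, when aged WT replicate 2 was left out.

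Optn apart, Wipi1 had the smallest P of the detected genes at 15 mo. Its brightest probe read 10.28, 10.34, 10.28 and 10.16 in BACHD hearts and 10.20, 10.17, 10.05 and 10.11 in WT hearts at that age, with the lowest BACHD heart below 2 of the WT hearts. The difference was 0.13 ± 0.07 (SE, adjusted p = 0.855), and at 3 mo, with 10.27, 10.37, 10.41 and 10.38 in BACHD and 10.28, 10.50, 10.35 and 10.20 in WT hearts, it was 0.02. The groups overlapped at both ages.

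The best known components lay close together in both genotypes. The difference between BACHD and WT hearts was 0.08 at 15 mo and 0.00 at 3 mo for Becn1, with 95% intervals of -0.23 to 0.39 and -0.31 to 0.31. It was -0.11 and -0.02 for Map1lc3a, 0.09 and 0.03 for Map1lc3b, and 0.04 and 0.14 for Ulk1, in the same order of ages. Sqstm1 differed by 0.12 at 15 mo and -0.06 at 3 mo, with intervals of -0.15 to 0.40 and -0.34 to 0.21. Pink1 differed by -0.10 and -0.01, with intervals of -0.23 to 0.03 and -0.15 to 0.12. A p that misses the threshold does not show that the genotypes were alike, and the intervals give the sizes that were not excluded by the spread of 4 mice.

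**Figure D3:**
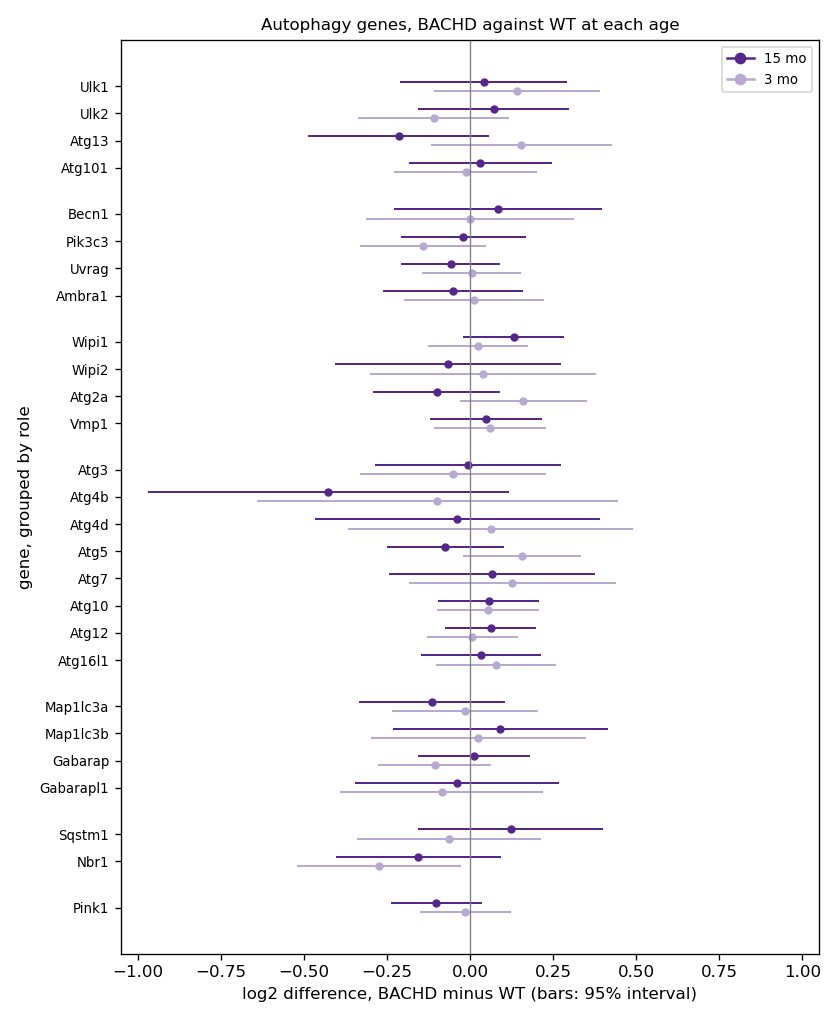
Log2 difference between BACHD and WT hearts (horizontal axis) for the brightest probe of the 27 genes detected in every group, grouped by role, at 15 mo (dark) and 3 mo (pale), with bars for the 95% interval. The intervals of the 27 genes at 15 mo cross 0, Optn not being plotted,, and at 3 mo that of Nbr1, at -0.27, lies below it.

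**Figure D4:**
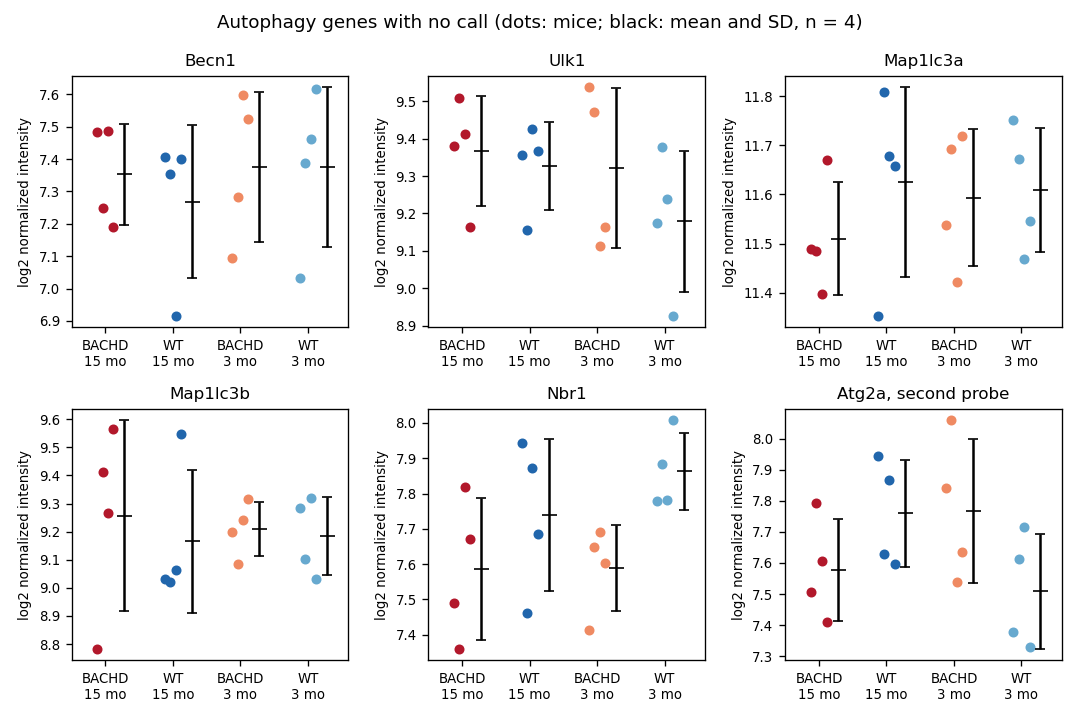
Log2 normalized intensity (vertical axes) of 6 probes without a call in the 4 groups, with each dot 1 mouse and the black mark and bar the mean and SD of the 4 mice. The 2 genotypes overlap at each age for 5 of the probes, and for Nbr1 the 4 young BACHD hearts lie below the 4 young WT hearts.

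Without the 4 aged arrays with raised atrial markers, which leaves 2 aged hearts in each genotype, 2 probes were called between BACHD and WT at 15 mo, against 1.6% of all probes under the same setting. They were Atg13, at -0.51 (adjusted p = 0.242), and Nbr1, at -0.49 (adjusted p = 0.198), both lower in BACHD hearts. This choice of arrays was made after seeing the data.

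The change with age in the effect of the genotype was called for 0 of 57 probes, against 0.611% of all probes, and 1 passed at P below 0.05 without adjustment, against 6.19%. That probe was the dimmer one of Atg2a, a protein that moves lipid into the growing membrane. It read 7.51, 7.79, 7.61 and 7.41 in aged BACHD hearts and 7.95, 7.63, 7.87 and 7.60 in aged WT hearts. At 3 mo it read 7.84, 8.06, 7.54 and 7.63 in BACHD hearts and 7.38, 7.61, 7.72 and 7.33 in WT hearts. The genotypes overlapped at both ages, with a difference of -0.18 at 15 mo and 0.26 at 3 mo and a change between the ages of -0.44 (adjusted p = 0.79 in limma). The brightest Atg2a probe changed the same way, by -0.26.

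A wider list of 66 further autophagy genes, among them fusion, mitophagy and reticulophagy factors, was read beside these members, and 58 of them had a probe, 103 probes in all. At 15 against 3 mo in BACHD hearts 13 probes were called, 8 higher and 5 lower, which is 12.6% of the 103 against 5.15% of all probes. Of the 13 called, 4 were probes of a single gene, Vps16, and among probes detected on at least 4 arrays the share was 17.6% of the 74 listed and 11% of all. In WT hearts 2 were called, both higher, or 1.94% against 2.77%. Averaged over both genotypes 16 were called, 11 higher and 5 lower, or 15.5% against 7.05%, and among detected probes 21.6% against 15.1%. Of these 16, 4 were again probes of Vps16. Between BACHD and WT 1 was called at 15 mo, or 0.971% against 0.895%, and 0 at 3 mo, against 0.483%. At 3 mo 5 passed at 0.05 without adjustment, or 4.85% against 4.88%.

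The clearest of these genes was Vps16, a subunit of the complexes that tether late endosomes and autophagosomes to lysosomes. Its brightest probe, ILMN_1230082, read 9.08, 9.14, 8.75 and 9.08 in aged BACHD hearts and 8.41, 8.51, 8.43 and 8.18 in young BACHD hearts. The WT hearts read 8.94, 8.84, 8.85 and 8.85 at 15 mo and 8.62, 8.58, 8.69 and 8.65 at 3 mo. Aged and young hearts did not overlap in either genotype. The 4 detected probes of Vps16 were higher at 15 mo in BACHD hearts by 0.63, 0.44, 0.45 and 0.49, all called, and in WT hearts by 0.24, 0.13, 0.23 and 0.14, none called. The call on the dimmest of them in BACHD ended, at 0.42, without aged BACHD replicate 1. The difference between these effects of age was 0.40 on the brightest probe (adjusted p = 0.759 in limma) and was not called. At 15 mo 1 of the 4 probes, ILMN_2893683, was higher in BACHD than in WT hearts, by 0.32, and that call ended, at 0.28 to 0.34, without any of aged BACHD replicates 1, 2 and 4 and aged WT replicates 1, 2 and 4. Without the 4 arrays with raised atrial markers it was 0.27 and not called, and the age difference of ILMN_2420505 in BACHD, at 0.46, was not called either.

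Tmem41b, an endoplasmic reticulum lipid scramblase needed early in autophagosome formation, was lower at 15 mo on its called probe, ILMN_2738090. The difference was -0.60 in BACHD hearts, a call, and -0.23 in WT hearts. The call held under all 19 alternatives, but its size ranged over -0.671 to -0.282. With single arrays left out it was -0.671 to -0.505. Vps11, a further subunit of the tethering complexes, was higher by 0.35 in BACHD and 0.39 in WT, and the call in WT ended, at 0.32 to 0.39, without any of aged WT replicates 1, 2 and 3 and young WT replicates 2 and 4. Ei24 was lower by -0.32 in BACHD and -0.18 in WT, and its call in BACHD ended, at -0.24, without aged BACHD replicate 4 and also, at -0.24, without the 4 arrays with raised atrial markers. Bcl2l13, a mitophagy receptor, was higher by 0.34 and 0.12, and Trp53inp2, which binds LC3 and GABARAP proteins, differed by -0.46 and 0.05, with the call in BACHD for both. Trp53inp2 differed by -0.32 in BACHD without aged BACHD replicate 4 and was still called, but its call ended with only the 8 BACHD arrays in the fit. The call of Bcl2l13 in BACHD ended with median scaling. The differences of these genes between the genotypes in the effect of age were not called.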

How the data were processed

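RNA from the ventricles of 16 mice was hybridised to Illumina MouseRef-8 arrays, 1 array for each mouse, and the arrays were read in BeadStudio, with no version in the sources read here. The authors deposited a table of signal intensity per probe and array without normalization, and a detection p-value for each intensity. The authors also deposited processed log2 values, which equal the quantile normalized log2 intensity to within 5e-09. The files hold no columns of the authors' own comparisons and 0 columns that could not be matched to a sample. Here the intensities were background corrected by normexp at an offset of 16, where limma estimated the negative control level out of the detection p-value column, then quantile normalized and log2 transformed, and all 25697 probes were fitted in limma 3.58.1 (R 4.3.3) with a mean for each of the 4 groups, over all 16 arrays. Figures were drawn with matplotlib 3.10.9. A probe was called at an unadjusted P under 0.005, and p-values were also adjusted by Benjamini-Hochberg over all probes. Probes were named from the platform annotation, which gave 1 symbol to 23978 probes, several to 0 and none to 1719. ILMN_2676606, unnamed there, was read as Optn because the study names it so, after the values of the other members had been seen. Probes of a gene were kept apart, and the brightest is given where a gene is described by 1 probe. Values for every array are given for the called members, for the detected member with the smallest P in each comparison and for Becn1, Map1lc3a, Map1lc3b, Gabarapl1, Sqstm1, Ulk1, Tfeb and Pink1, and of the wider list at most 6 called genes are named by smallest P. Atg2b and Tollip are named besides these for their single values, and the promoter motif GGGCGG was searched after the values were seen. The members, the lists and the rule were chosen with earlier results of these data known.

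No array equalled another, and the 120 pairs of arrays correlated at 0.984 to 0.994. Replicate numbers were not taken as pairs in the main fit. The deviations of the 16 same-numbered pairs from their group means correlated at -0.504 to 0.312, and 6 of them were over 0.1. Between aged BACHD and aged WT arrays and between aged and young BACHD arrays, same-numbered pairs were all positive, at 0.0534 to 0.312. The negative pairs all held young WT replicate 1 or 3. Young WT replicate 1 correlated at 0.391 and 0.44 with replicate 3 of young BACHD and aged WT. Young WT replicate 3 correlated at 0.422 and 0.529 with their replicate 1. Whether arrays of the same number shared a processing step was not tested. The mice of a group are separate animals, so p-values measure the spread between animals together with that between arrays. The chip that each array was on is not named, so it was not fitted as a block. The fit was tested on simulated data, with noise drawn independently for each probe and array and so without effects shared by arrays. Of 67 probes changed by 0.3 with age, it called 51 averaged over both genotypes and 38 in WT. The alternatives left out the background correction, raised the offset to 50, used the processed values, scaled by the median, kept detected probes alone, changed the variance model, weighted the arrays, added a replicate block, averaged the probes of a gene or left out each array in turn.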

Additional observations from a re-analysis of the deposited data

Results flagged for a closer look

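Among 104 groups of 4 arrays looked at, over 26 probes, 7 held an array far from the other 3, and chance gives about 1 in 20 such groups. Among the members these were Becn1 at 6.92 in aged WT replicate 3, with the others at 7.35 to 7.41, Map1lc3b at 9.55 in aged WT replicate 4, with the others at 9.02 to 9.06, and Gabarapl1 at 11.07 in aged WT replicate 3, with the others at 10.27 to 10.37.

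Among the further autophagy genes, the brightest probe of Vps16 read 8.75 in aged BACHD replicate 3, with the others at 9.08 to 9.14, and 8.94 in aged WT replicate 1, with the others at 8.84 to 8.85. Its dimmest detected probe read 6.05 in young BACHD replicate 1, with the others at 5.88 to 5.90. Atg2b, a lipid transfer protein related to Atg2a, read 8.63 in aged BACHD replicate 2, with the others at 8.59.

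Tollip, an adaptor that binds ubiquitin and Atg8 proteins, was the gene of the wider list called for a change with age in the genotype effect. The change was 0.387 (adjusted p = 0.759 in limma). Such a call was made for 0.971% of the 103 probes of that list, against 0.611% of all probes. The call on Tollip ended under 17 of 26 alternatives. It was lost when any of 11 of the 16 arrays was left out, with the difference at 0.321 to 0.426 over the 16 removals. Without the 4 aged arrays with raised atrial markers it was also lost, at 0.394.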

How the results depend on the processing

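The 8 called differences of the 57 member probes had 187 values under the alternatives, of which 151 kept the call, 36 lost it and 0 changed sign. At 15 against 3 mo in BACHD hearts, 2 probes were called without background correction, on the processed values, with trended and robust variances, with array weights, with the probes of a gene averaged and, chosen after seeing the data, without the 4 arrays with raised atrial markers, 3 with only the 8 arrays of the contrast, and 0 with median scaling. In WT hearts 0 were called with median scaling and 1 with averaged probes. Averaged over both genotypes, 11 probes were called without background correction and on the processed values, and 1, Pink1 at 0.30, with median scaling. The counts of probes called in this section stand without the share of all probes under the same setting. No excess over all probes can be read from them. Without the 4 arrays with raised atrial markers, 2 probes were called between BACHD and WT at 15 mo, 1 averaged over both ages and 1 for the change with age in the genotype effect.

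Leaving out 1 array gave 1 to 7 calls with age averaged over both genotypes, 1 to 4 in BACHD, 2 to 3 in WT, 0 to 1 for the genotype averaged over both ages, 0 to 1 for the change with age in the genotype effect, and 0 to 0 for the genotype at 15 mo and at 3 mo. The lowest count with age, 1, came without aged BACHD replicate 4, and the highest in BACHD, 4, without aged BACHD replicate 3. With a replicate block, 1 probe was called with age in BACHD, 3 in WT and 5 averaged over both, and 0 in the comparisons of the genotypes. Of the 5, Atg5 was lost and Ambra1 gained, and in WT Wipi2, at -0.37, was gained. For Optn, the difference between BACHD and WT at 15 mo was called under 8 of 18 alternatives, that with age in BACHD under 18 of 18 and that averaged over both genotypes under 25 of 25. For the wider list, 551 of 746 values kept the call and 195 lost it.

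The 4 mice in each group limit the precision. Why calls were lost under median scaling was not tested. The difference of Atg7, a dim probe, was 0.14 without background correction, and the 13 member probes detected on no array give no comparison.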
